A study of Mus musculus with 6 samples.

Results

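Integrins are cell surface receptors built from 1 α and 1 β chain, and they hold T cells to vessel walls, to matrix and to other cells. A resting integrin binds its ligand weakly, and signals from inside the cell, carried by the small GTPase Rap1, talin and the kindlins, open it for binding. A chain that is made without a partner does not reach the surface as a receptor, so the RNA levels of both chains bear on which pairs a T cell could form. The 9 integrin chains described here are the α chains Itga1, Itga4, Itga6, Itgal and Itgav and the β chains Itgb1, Itgb2, Itgb3 and Itgb7. They were taken by gene symbol, 9 of the 23091 symbols in the data, and each has 1 entry. Another 18 integrin chains in the data served for comparison.

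RNA was measured in mouse CD4 T cells driven toward the Th9 state, named for the cytokine interleukin 9, in 6 groups of 1 library each. The groups were Th9 cells given 10 ng/ml interleukin 1β (IL-1β) and Th9 cells without it, each at 1 h and at day 3 of culture and in vivo, 1 week after transfer. All groups began as naive CD4 T cells of 7-week-old wild-type C57/Bl6j mice, taken from spleen and lymph nodes. All were plated on CD3 and CD28 antibodies, and the medium held 20 ng/ml IL-4, 2 ng/ml TGFβ and an IFNγ-blocking antibody. For the in vivo groups, CD45.2 cells were injected after 3 days of culture into CD45.1 hosts and sorted 1 week later. The sources used here give neither the tissue they were recovered from nor the number of mice behind each library. The 1 h RNA was rRNA-depleted and that of the other 4 libraries was purified by poly(A), so the step from 1 h to day 3 and the change of method cannot be told apart.

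The unit is the authors' FPKM, fragments scaled to transcript length and to the fragments mapped in the library, given with a lower and an upper bound whose level is not stated. With 1 library per group there is no replicate check of any difference. Between 7313 and 8154 symbols reached 5 FPKM at day 3 and in vivo, against 631 to 765 at 1 h. Depth is unknown, and precision shows only in the intervals, which for the integrin chains reached a median of 14.8% to 19.8% of the value to either side at day 3 and in vivo. In the 1 h libraries this was 42.4% with IL-1β and 75.8% without. T cell markers were abundant in the poly(A) libraries, where Cd4 was at 172 to 231 FPKM, Cd3e at 318 to 359.6 FPKM and Cd8a at 0.97 to 2.91 FPKM. The Cd3e value lay above its own upper bound in all 4. At 1 h, Cd4 was at 7.17 FPKM with IL-1β, against 8.0 FPKM without. The in vivo libraries also held markers of other cells, at levels given beside the results they move with. In such bulk RNA, fewer cells of a type and less RNA per cell cannot be told apart.

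The α4 chain and both of its partners are shown by the sequence before their start sites, since the results set their levels against each other. Itga4 pairs with Itgb1 to bind VCAM-1 and fibronectin, and with Itgb7 to bind MAdCAM-1 of gut vessels. The 250 bases before the annotated start of each gene are given 5′ to 3′ on the gene's strand, from RefSeq on GRCm38.p6, which held entries for 5 of the 9 chains. They lie at chr2:79255176-79255425 on the plus strand for Itga4, at chr8:128685404-128685653 on the plus strand for Itgb1 and at chr15:102231936-102232185 on the minus strand for Itgb7. Capitals mark matches, on either strand, to a GC box (GGGCGG), a Runx core (TGTGGT), an ETS core with flank (GGAAG), an AP-1 site (TGACTCA) or a TATA box (TATAAA).
Itga4: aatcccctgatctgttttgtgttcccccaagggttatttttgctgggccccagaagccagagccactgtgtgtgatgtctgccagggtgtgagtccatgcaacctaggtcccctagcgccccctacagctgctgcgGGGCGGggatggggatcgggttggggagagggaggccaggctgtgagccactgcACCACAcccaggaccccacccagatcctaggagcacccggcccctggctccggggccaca
Itgb1: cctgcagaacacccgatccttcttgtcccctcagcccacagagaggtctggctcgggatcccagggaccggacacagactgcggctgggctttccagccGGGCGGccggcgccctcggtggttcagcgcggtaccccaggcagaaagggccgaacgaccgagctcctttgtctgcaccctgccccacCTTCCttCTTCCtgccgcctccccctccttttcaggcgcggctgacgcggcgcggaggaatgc
Itgb7: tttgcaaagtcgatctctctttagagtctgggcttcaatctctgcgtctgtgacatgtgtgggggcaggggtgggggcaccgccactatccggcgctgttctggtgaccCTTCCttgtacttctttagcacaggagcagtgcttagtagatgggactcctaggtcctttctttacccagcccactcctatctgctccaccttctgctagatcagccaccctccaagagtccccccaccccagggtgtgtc
No match overlapped another. Itga4 had a GC box and a Runx core, Itgb1 a GC box and a pair of ETS cores, and Itgb7 a single ETS core, while none of the 3 had an AP-1 or TATA match. Of the 32851 promoter windows of this length, 32.7% held a GC box, 14.0% a Runx core, 64.1% an ETS core, 4.46% an AP-1 site and 12.4% a TATA box. The GC content was 64.0% for Itga4, 68.0% for Itgb1 and 56.0% for Itgb7, against a median of 52.4% over all windows. Such matches describe the letters of these windows and are not shown to be bound.

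The leading chains were those of the leukocyte integrins. Itgb2, the β chain shared by LFA-1 and its relatives, was the highest integrin RNA in all 4 poly(A) libraries. It stood at 119.6 FPKM at day 3 with IL-1β and 169 FPKM without, and at 133 FPKM in vivo with IL-1β and 180.5 FPKM without. Itgb7 and Itgal, the α chain of LFA-1 that binds ICAMs, followed at 58.3 to 113 FPKM in these 4 libraries. Itgb3, which pairs with αv to bind vitronectin and with the platelet chain αIIb, came next at 27.6 to 53.9 FPKM, except that Itgb1 was above it in vivo with IL-1β (35.2 against 30.8 FPKM, with overlapping intervals). Itgb1, the most widely shared β chain, was at 16.9 to 35.2 FPKM. Itgav, Itga6 and Itga4 stayed between 1.76 and 11.5 FPKM, and Itga1, the collagen-binding α1 chain, was listed at 0 at day 3 in both arms.

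**Figure D1:**
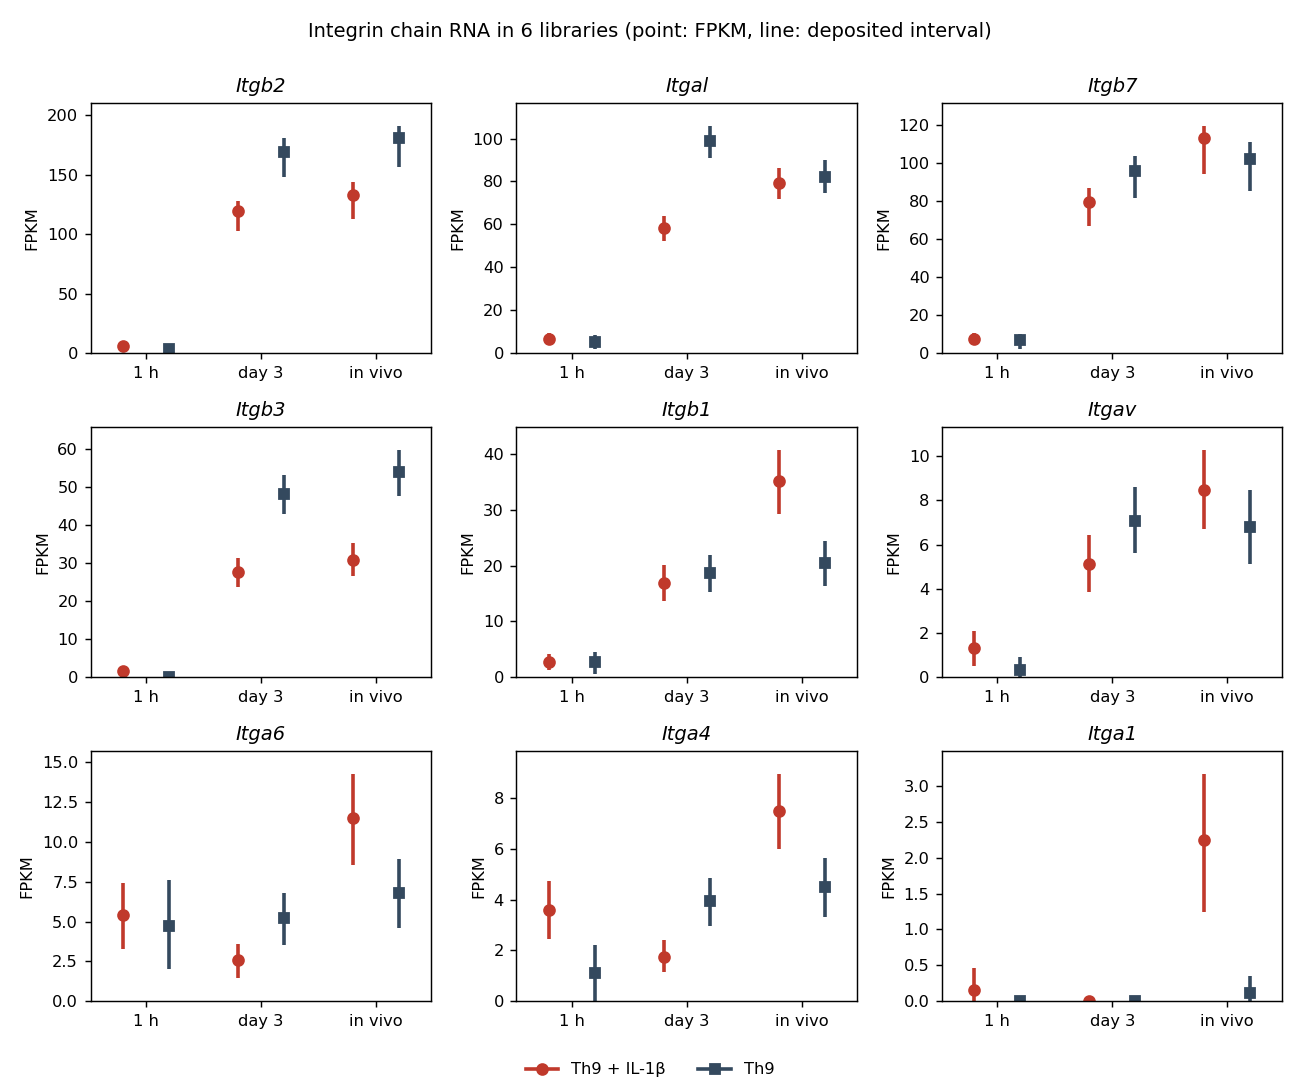
FPKM (vertical axis) of 9 integrin chains in 6 libraries, by stage, with Th9 cells given IL-1β as circles and Th9 cells without it as squares. Lines are the deposited intervals; Itgb3 is lower with IL-1β at day 3 (27.6 against 48.1 FPKM) and in vivo (30.8 against 53.9 FPKM).

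Not every step of this order was resolved. At day 3 with IL-1β all neighbours lay apart except Itga6 and Itga4, whose intervals overlapped at 2.57 and 1.76 FPKM. At day 3 without IL-1β the overlapping neighbours were Itgal with Itgb7, Itgav with Itga6, and Itga6 with Itga4. In vivo with IL-1β they were Itgb2 with Itgb7, Itgb1 with Itgb3, Itga6 with Itgav and Itgav with Itga4. In vivo without IL-1β they were Itgb7 with Itgal, Itgav with Itga6 and Itga6 with Itga4. At 1 h all neighbours overlapped except Itgav and Itga1 with IL-1β.

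FPKM is a value per length of transcript, and on this scale the chains were set against each other within a library. Ratios between libraries moved with transcript length at day 3 and between day 3 and 1 h, and most α chains have longer transcripts than the β chains (Itga4 9767 bases, Itgb7 2683 bases). The sums and percentages that follow were not adjusted for this. The 4 β chains summed to 244 FPKM at day 3 with IL-1β and 332 FPKM without, and to 312 FPKM in vivo with IL-1β and 357 FPKM without. The 5 α chains summed to less in each of these: 67.8 FPKM at day 3 with IL-1β and 115 FPKM without, and 109 FPKM in vivo with IL-1β and 100.5 FPKM without. At 1 h the sums were close, 17.4 FPKM of α against 18.4 FPKM of β with IL-1β and 11.2 against 13.4 FPKM without. Itgal made 72.8% to 86.0% of the α sum in the poly(A) libraries and 39.5% to 45.1% at 1 h.

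**Figure D2:**
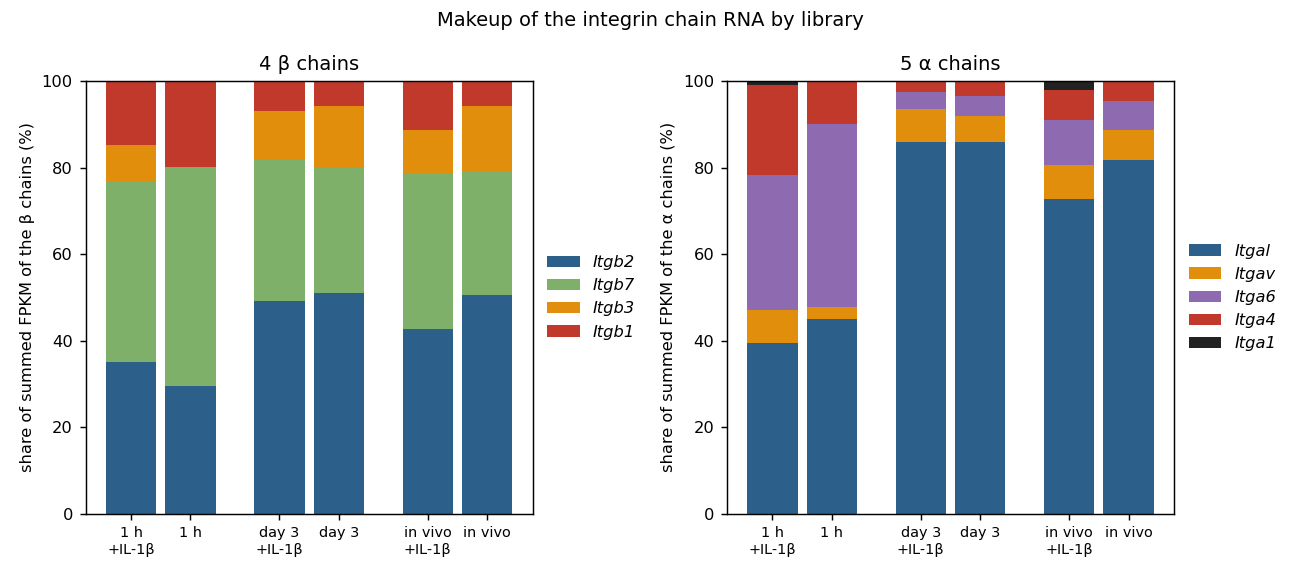
Share (%) of each chain in the summed FPKM of the 4 β chains (left) and of the 5 α chains (right), 1 bar per library. Itgb3 made 11.3% of the β sum at day 3 with IL-1β and 14.5% without, and 9.89% in vivo with IL-1β and 15.1% without.

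In the poly(A) libraries the RNA of partner chains was far from even for the minor pairs. For LFA-1, Itgal RNA was 48.7% of Itgb2 RNA at day 3 with IL-1β and 58.4% without, and 59.6% in vivo with IL-1β and 45.6% without. The ranges that the intervals allow overlapped in each of these pairs. For α4β7, Itga4 RNA was 2.21% of Itgb7 RNA at day 3 with IL-1β (range 1.35% to 3.58%) and 4.12% without (2.86% to 5.96%). In vivo it was 6.62% with IL-1β (5.01% to 9.53%) and 4.39% without (2.99% to 6.62%). In all 4 poly(A) libraries Itga4 was thus the scarcer RNA of this pair. At 1 h, where the RNA was selected differently, Itga4 RNA was 47.2% of Itgb7 RNA with IL-1β (23.2% to 106%) and 16.3% without (0 to 92.1%). Itgal RNA was there 107% of Itgb2 RNA with IL-1β and 128% without. For αvβ3, Itgav RNA was 18.6% of Itgb3 RNA at day 3 with IL-1β (12.3% to 27.1%) and 14.7% without (10.6% to 20.0%), with overlapping ranges. It was 27.4% of Itgb3 RNA in vivo with IL-1β (19.1% to 38.8%) and 12.7% without (8.57% to 17.7%), which lay apart.

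To ask how IL-1β altered the chains, genes with 5 FPKM or more in either library of a pair were compared. Higher or lower means here that FPKM + 1 differed at least 2-fold and the deposited intervals lay apart. This is a rule of size and not a test. At 1 h, 4 chains could be compared and 0 were counted in either direction (all genes: 7.93%). Itgb7 was at 7.64 FPKM with IL-1β, against 6.79 FPKM without, and Itgal at 6.88 FPKM with it, against 5.07 FPKM. Itgb2 was at 6.43 FPKM with IL-1β, against 3.95 FPKM without, and Itga6 at 5.43 FPKM with it, against 4.75 FPKM. The intervals overlapped for each of these 4. Itga4, under 5 FPKM in both libraries, was at 3.61 FPKM with IL-1β (2.47 to 4.74), against 1.11 FPKM without (0 to 2.21), and its intervals lay apart. Itgb3 was at 1.58 FPKM with IL-1β, and the library without it listed this chain at 0.

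At day 3 the compared integrin chains were listed lower with IL-1β, by less than 2-fold of FPKM + 1. Of 7 chains compared, 0 were counted (all genes: 3.44%). All 7 log2 ratios were below 0, while 46.7% of all compared genes had ratios above 0. That of Itgb1 turned to 0.06 with the length trend described next subtracted. The median of the 7 chains was -0.50, against -0.05 over all compared genes, before that trend was subtracted. Itgb3 was at 27.6 FPKM with IL-1β (23.8 to 31.4), against 48.1 FPKM without (43.0 to 53.2), a log2 ratio of -0.78 with extremes of -1.13 and -0.44. Itgal was at 58.3 FPKM with IL-1β (52.5 to 64.1), against 98.7 FPKM without (91.1 to 106), a log2 ratio of -0.75. Itgb2 was at 119.6 FPKM with IL-1β (103 to 128), against 169 FPKM without (148 to 181), a log2 ratio of -0.50. These 3 chains had intervals that lay apart, downward, as did 12.7% of all compared genes. The intervals overlapped for Itgb7 (79.7 FPKM with IL-1β, 96.0 without), Itgb1 (16.9 with IL-1β, 18.7 without), Itgav (5.13 with IL-1β, 7.09 without) and Itga6 (2.57 with IL-1β, 5.24 without, over 5 FPKM only without it). Itga4 was at 1.76 FPKM with IL-1β (1.17 to 2.41), against 3.95 FPKM without (2.98 to 4.87), apart but below the 5 FPKM minimum.

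The day 3 ratios of all genes moved with transcript length, with a median of 0.36 in the shortest of 5 length bins and -0.45 in the longest, which began at 4657 bases. The longest annotated transcripts of Itgal (5222 bases), Itgb3 (5784 bases), Itgav (7054 bases) and Itga4 (9767 bases) are in that longest bin. With a smooth length trend subtracted, the log2 ratio was -0.37 for Itgb3, -0.38 for Itgal, -0.48 for Itga4, -0.42 for Itgb2 and -0.00 for Itgav. Itgb2, with 2970 bases, moved least of these 5. No such trend ran through the in vivo comparison of the arms, where the medians were 0.01 and 0.03 in the shortest and longest bins.

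**Figure D3:**
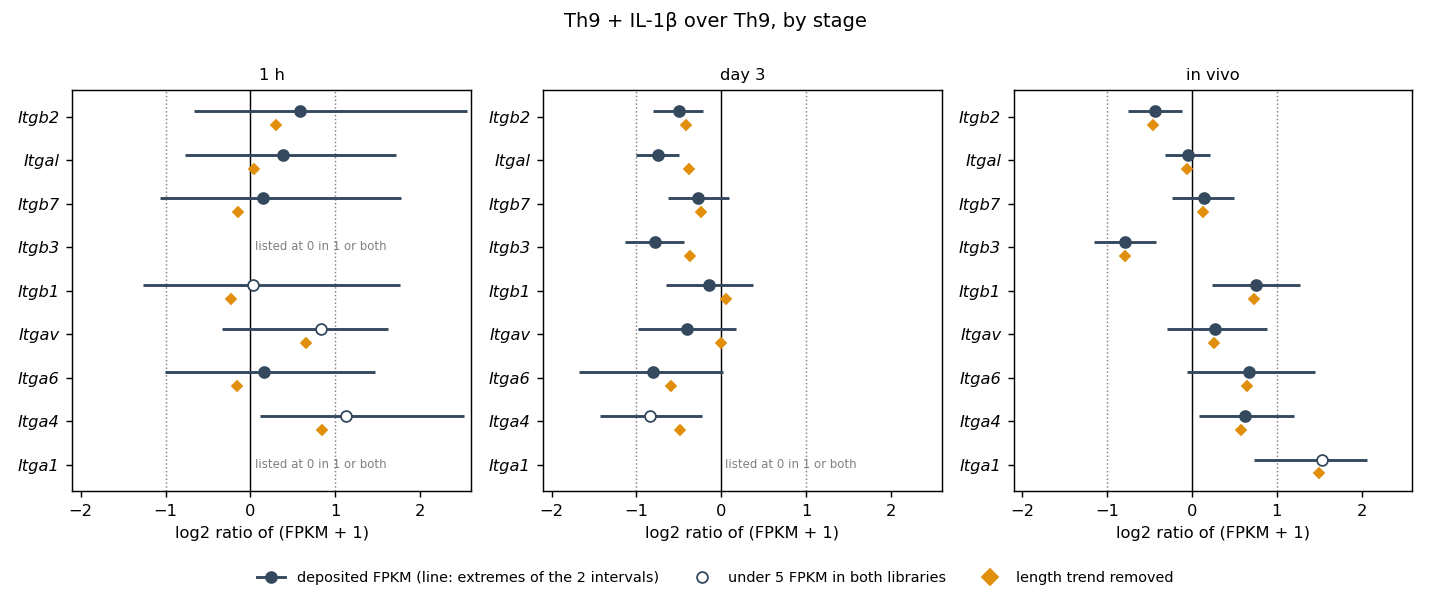
Log2 ratio of FPKM + 1, Th9 cells given IL-1β over Th9 cells without it, for 9 integrin chains at 3 stages. Circles are deposited values (open: under 5 FPKM in both libraries), lines the extremes of the intervals, diamonds the ratio after the length trend, and dotted lines mark 2-fold; a chain listed at 0 in either library has no point. At day 3 the 7 filled circles lie below 0, and in vivo Itgb3 and Itgb2 lie below while Itgb1 and Itga4 lie above.

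In vivo the chains split in direction between the arms. Of 8 chains compared, 0 were counted by size (all genes: 9.71%). Itgb3 and Itgb2 had intervals apart, downward (all genes: 8.33%), and Itgb1 and Itga4 had intervals apart, upward (all genes: 9.91%). Itgb3 was at 30.8 FPKM with IL-1β (26.5 to 35.2), against 53.9 FPKM without (47.7 to 59.8), a log2 ratio of -0.79 with extremes of -1.15 and -0.43. Itgb2 was at 133 FPKM with IL-1β (113 to 144), against 180.5 FPKM without (156 to 191), a log2 ratio of -0.44. Itgb1 was at 35.2 FPKM with IL-1β (29.2 to 40.8), against 20.5 FPKM without (16.4 to 24.5), a log2 ratio of 0.75. Itgb3 RNA was thereby 87.7% of Itgb1 RNA with IL-1β (64.8% to 121%) and 263% without (195% to 364%).

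The α chains and Itgb7 completed the comparison of the in vivo arms. Itga4, which reached 5 FPKM only in the library with IL-1β, was at 7.49 FPKM with IL-1β (6.0 to 8.97), against 4.49 FPKM without (3.33 to 5.65), and Itga6, the laminin-binding α6 chain, at 11.5 FPKM with IL-1β (8.53 to 14.3), against 6.82 FPKM without (4.63 to 8.92), where the Itga6 intervals overlapped. Itgal was at 79.2 FPKM with IL-1β, against 82.2 FPKM without, a log2 ratio of -0.05 with extremes of -0.32 and 0.21. Itgb7 was at 113 FPKM with IL-1β, against 102 FPKM without, and Itgav at 8.45 FPKM with it, against 6.82 FPKM, and the intervals overlapped for both. Itga1 was at 2.24 FPKM with IL-1β (1.24 to 3.17), against 0.121 FPKM without (0 to 0.348), apart but under 5 FPKM.

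Markers of other cells moved with this comparison. Epithelial markers summed to 17448 FPKM in vivo with IL-1β and 6710.1 FPKM without, and 9 of 12 compared were counted as higher. Stromal markers summed to 368 FPKM with IL-1β, against 36.8 FPKM without (9 of 10 higher), and endothelial markers to 207 FPKM with IL-1β, against 87.3 FPKM without it (4 of 8). Myeloid markers summed to 3164 FPKM with IL-1β, against 1407 FPKM without (5 of 19), and platelet markers to 75.8 FPKM with IL-1β, against 24.8 FPKM without (1 of 2). Over all compared genes, 6.23% were counted as higher. Without IL-1β, 9 epithelial, 3 stromal, 5 endothelial and 15 myeloid markers reached 5 FPKM, against 12, 10, 8 and 19 with it. The rest entered only through the library where they were high, so those counts are no support for a rise of these lists. Among defining markers, Sftpc of lung epithelium was at 10010.5 FPKM with IL-1β, against 3512 FPKM without, while Dcn and Pdgfra of stroma were at 7.89 and 5.37 FPKM with IL-1β and at 0 in the library without it. Both Sftpc values lay above their own upper bounds, which were 7159 FPKM with IL-1β and 2683 FPKM without. So did those of Scgb1a1, another marker in the epithelial sum, at 5709.9 FPKM (upper bound 2908) and 2736 FPKM (upper bound 1563). T cell markers summed to 3159 FPKM with IL-1β, against 3422 FPKM without, with 0 of 13 counted. Epithelial, stromal and endothelial cells also carry integrin chains. The in vivo cells had been sorted as transferred CD45.2 cells. The part of other cells in the result was not tested. At day 3 the epithelial sum was 19.1 FPKM with IL-1β, against 19.4 FPKM without, and the stromal sum 2.41 FPKM with IL-1β, against 2.16 FPKM without. Platelets carry β3, and at day 3 platelet markers summed to 20.1 FPKM with IL-1β, against 10.4 FPKM without. Of these only Pf4 reached 5 FPKM, at 15.6 FPKM with IL-1β, against 4.3 FPKM. Its intervals overlapped and it was not counted. The platelet genes Ppbp (2.07 FPKM with IL-1β, 3.15 without) and Gp9 (0 with IL-1β, 0.908 without) were listed lower with IL-1β at day 3. Itga2b, the gene of αIIb, was listed higher with it. Myeloid markers summed there to 198 FPKM with IL-1β, against 150.5 FPKM without. The part of these cells in the Itgb3 values was not tested.

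Fitted over all 3 stages with limma on log2 of FPKM + 1, 0 of 8946 genes passed an adjusted p of 0.05 for IL-1β, and 388 had an unadjusted p under 0.05, none of them an integrin chain. The adjusted p of the 8 chains tested lay between 0.961 and 0.998, with log2 changes of -0.14 (Itgal, SE 0.35) to 0.31 (Itga4, SE 0.40). Without the 1 h libraries, the Itgb3 change was -0.78 (SE 0.32), with an unadjusted limma p of 0.0134 and an adjusted p of 0.376. That fit called 75 of 8901 genes, of which 0.528% of all tested were higher and 0.315% lower, and no chain was among them.

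From 1 h to day 3 most chains were listed far higher, as were nearly all genes. With IL-1β, 6 of 7 compared chains were counted as higher at day 3 (all genes: 95.5%), and without IL-1β also 6 of 7 (all genes: 95.7%). The exceptions were Itga6 in both arms, at 2.57 FPKM at day 3 against 5.43 FPKM at 1 h with IL-1β and at 5.24 against 4.75 FPKM without. Itgb2 stood at 119.6 FPKM at day 3 against 6.43 FPKM at 1 h with IL-1β, and at 169 against 3.95 FPKM without. Itga4 was at 1.76 FPKM at day 3 against 3.61 FPKM at 1 h with IL-1β, and at 3.95 against 1.11 FPKM without, under 5 FPKM throughout. Itgav, Itgb1 and Itgb3 in both arms, and Itgb2 and Itga6 without IL-1β, reached 5 FPKM only at day 3. With the libraries scaled to an equal median, 0 chains with IL-1β and 1 without were counted as higher, and Itgb1 turned to a log2 ratio of -0.47 with IL-1β and -0.44 without.

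Between day 3 and the in vivo stage the chains of the IL-1β arm were counted as higher in 3 cases of 8 compared (all genes: 12.0%), namely Itga6, Itga4 and Itgb1. Itga6 was at 11.5 FPKM in vivo (8.53 to 14.3) against 2.57 FPKM at day 3 (1.44 to 3.60), a 3.49-fold difference of FPKM + 1. Itga4 was at 7.49 FPKM in vivo against 1.76 FPKM at day 3, 3.07-fold, and Itgb1 at 35.2 against 16.9 FPKM, 2.03-fold. The median log2 ratio of all genes was -0.42 in the shortest length bin and 0.49 in the longest here. With that trend subtracted, Itgb1 was below the 2-fold limit at a log2 ratio of 0.86, while Itga4 was at 1.16 and Itga6 at 1.61. With a pseudocount of 5 FPKM in place of 1, only Itga6 was counted. Itga6 and Itga4 reached 5 FPKM only in the in vivo library of this pair. The median log2 ratio of the chains was 0.56, against 0.04 over all compared genes. This median was taken before the length trend was subtracted and includes Itga6 and Itga4, so it does not describe the chains as a family.

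The other chains of the IL-1β arm were not counted, Itga1 because it stayed under 5 FPKM. Itgal was at 79.2 FPKM in vivo against 58.3 FPKM at day 3, Itgb7 at 113 against 79.7 FPKM and Itgav at 8.45 against 5.13 FPKM, each with intervals apart. Thus 6 of 8 had intervals apart upward (all genes, of any length: 20.8%), among them Itga6 and Itga4, which entered only through the in vivo library. With the length trend subtracted, the log2 ratio went from 0.44 to 0.09 for Itgal and from 0.62 to 0.20 for Itgav. That of Itgb7 went from 0.50 to 0.54. Itgb2 was at 133 FPKM in vivo against 119.6 FPKM at day 3, and Itgb3 at 30.8 against 27.6 FPKM, with overlapping intervals. The Itgb3 log2 ratio of 0.15 turned to -0.24 with the length trend subtracted. Itga1 was at 2.24 FPKM in vivo and listed at 0 at day 3.

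Without IL-1β the same step gave 0 of 7 chains counted in either direction (all genes: 2.79%). Itgal was at 82.2 FPKM in vivo (74.6 to 89.8) against 98.7 FPKM at day 3 (91.1 to 106), the only chain with intervals apart, downward (all genes: 3.51%). Itga6 was at 6.82 FPKM in vivo against 5.24 FPKM at day 3, Itga4 at 4.49 against 3.95 FPKM, and Itgb1 at 20.5 against 18.7 FPKM, with overlapping intervals. Itgb3 was at 53.9 FPKM in vivo against 48.1 FPKM at day 3, Itgb2 at 180.5 against 169 FPKM and Itgb7 at 102 against 96.0 FPKM, also overlapping. The day 3 and in vivo libraries enter the comparisons of arms and of stages alike, so these are not independent of each other.

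**Figure D4:**
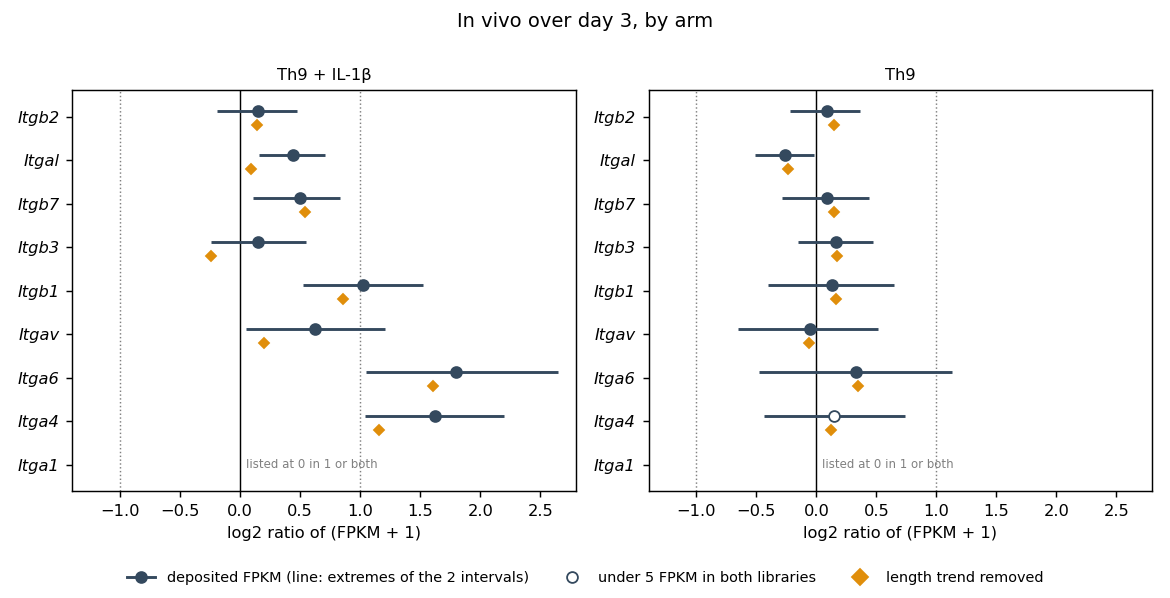
Log2 ratio of FPKM + 1, in vivo over day 3, for 9 integrin chains in Th9 cells given IL-1β (left) and Th9 cells without it (right), drawn with the same symbols as the ratios of the arms. Itga6, Itga4 and Itgb1 reach 2-fold on the left (3.49, 3.07 and 2.03-fold), and no chain does on the right.

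Other cell markers also moved with the stage. In the IL-1β arm the epithelial sum was 17448 FPKM in vivo against 19.1 FPKM at day 3 and the stromal sum 368 against 2.41 FPKM. Without IL-1β the epithelial sum was 6710.1 FPKM in vivo against 19.4 FPKM at day 3 and the stromal sum 36.8 against 2.16 FPKM. Their part in the chain values was not tested. In a limma fit of stage over the 4 poly(A) libraries, with arm as covariate, 2.33% of 8901 genes were higher in vivo and 0.932% lower, and no integrin chain passed. Itga6 came nearest, with a log2 change of 1.06 (SE 0.46), an unadjusted limma p of 0.0214 and an adjusted p of 0.271. Of all 8901 genes, 1088 had an unadjusted limma p under 0.05. As deposited, the Itga6 log2 ratio was above 0 in both arms, as were those of Itga4, Itgb1, Itgb2, Itgb3 and Itgb7. Itga4 had a log2 change of 0.88 (SE 0.61, adjusted p of 0.616 by limma) and Itgb1 one of 0.57 (SE 0.31, adjusted p of 0.464 by limma).

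The genes that act around the integrins were grouped into 5 lists. Of all compared genes, 7.72% were higher with IL-1β at 1 h, 2.15% were lower with it at day 3, and in vivo 6.23% were higher and 3.48% lower. In vivo against day 3 with IL-1β, 12.0% were higher and 5.87% lower, and the counts of each list stand against these shares. Itga3, Fermt2, Vcl, Tgfb1i1 and Tns1 in the in vivo comparisons, and Rasgrp2 and Vasp at 1 h, reached 5 FPKM only in the library where they were high, so their counts support nothing about their lists. Of the 18 other chains, Itgae, whose product joins β7 to bind E-cadherin, was at 0 to 0.911 FPKM in all 6 libraries, against 79.7 to 113 FPKM of Itgb7 in the poly(A) libraries. Itgb4, the other partner of α6, was listed at 0 in all 6, as was Itgb2l. Itgb5, another partner of αv, was at 1.38 to 4.02 FPKM in the poly(A) libraries, and Itga2b, the αIIb chain of platelets, at 0.683 to 3.61 FPKM. Itga5, the fibronectin-binding α5 chain, was at 6.9 FPKM in vivo with IL-1β and 4.54 FPKM without. Itga3 was the 1 of 2 compared that was counted as higher in vivo with IL-1β (6.47 against 2.11 FPKM without).

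Among genes of inside-out control, which hold activators of integrins and also inhibitors such as Sharpin and Itgb1bp1, 2 of 23 were counted as higher in vivo with IL-1β and 0 as lower, and their median log2 ratio was -0.02 against 0.03 over all genes. These were Fermt2 (kindlin-2), at 8.36 FPKM with IL-1β, against 2.08 FPKM without, and Vcl (vinculin), at 10.9 FPKM with IL-1β, against 3.89 FPKM without. At day 3 the count was 0 of 21, with a median of -0.33 against -0.05. The values of the lists, here and below, were not adjusted for transcript length. All-gene ratios moved with length at day 3 and in vivo against day 3 with IL-1β, so the list medians there may carry that trend. Tln1, the talin that binds β chain tails, was at 34.6 FPKM with IL-1β there and 59.7 FPKM without. At 1 h, 2 of 9 were higher with IL-1β: Rasgrp2, an exchange factor for Rap1, at 8.54 FPKM with IL-1β against 2.10 FPKM without, and Vasp, an actin regulator, at 6.12 against 1.02 FPKM. In vivo against day 3 with IL-1β, 5 of 23 were higher and 1 lower, with a median of 0.50 against 0.04. Rasgrp2 was at 35.2 FPKM in vivo against 11.3 FPKM at day 3, and the GTPase gene Rap1a at 34.4 against 70.5 FPKM. Without IL-1β this step gave 0 of 21.

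Genes that carry signals from bound integrins to actin gave 2 of 15 higher and 0 lower in vivo with IL-1β (median 0.15 against 0.03), namely Tns1 (tensin 1), at 13.9 FPKM with IL-1β, against 3.35 FPKM without, and Tgfb1i1 (Hic-5), at 6.82 FPKM with IL-1β, against 1.99 FPKM without. At day 3, 0 of 13 were higher and 1 was lower, the adaptor gene Crkl, at 5.96 FPKM with IL-1β, against 13.4 FPKM without. Of 10 membrane partners, 1 was higher in vivo with IL-1β, the tetraspanin gene Cd151, at 22.5 FPKM with IL-1β, against 10.1 FPKM without, and 0 of 10 were counted at day 3. In vivo against day 3 with IL-1β, 3 of 15 genes of the actin list and 2 of 10 membrane partners were higher, and without IL-1β 0 of 13 and 0 of 10.

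Of the 23 ligand genes listed, 13 could be compared between the in vivo arms, and 10 of these were higher with IL-1β and 1 was lower. Of the 10, 8 were under 5 FPKM without IL-1β and entered the comparison only through the library where they were high, so the count is no support for a rise of the list. The other two were Icam1 and Icam2, at 5 FPKM or more in both arms. Icam1, a ligand of LFA-1, was at 41.1 FPKM with IL-1β, against 13.6 FPKM without, and Icam2 at 41.0 FPKM with it, against 16.8 FPKM. The collagen gene Col1a1 was at 12.0 FPKM with IL-1β, against 0.778 FPKM without, and Fn1 (fibronectin) at 10.1 FPKM with it, against 0.688 FPKM. Lama5, a laminin chain, was at 4.07 FPKM with IL-1β, against 9.53 FPKM without. At day 3, 0 of 3 were higher and 1 was lower, Lama5, at 2.6 FPKM with IL-1β, against 6.66 FPKM without. Both at day 3 and in vivo, Lama5 reached 5 FPKM only in the library without IL-1β, so its counts support nothing about the list. Icam1 was at 17.9 FPKM at day 3 with IL-1β, against 17.2 FPKM without. In vivo against day 3 with IL-1β, 11 of 12 were higher, but only Icam1 among the 11 reached 5 FPKM at day 3, and Cdh1, Col1a2, Col3a1 and Col4a1 were listed at 0 there. Icam1 was at 41.1 FPKM in vivo against 17.9 FPKM at day 3. Without IL-1β 3 ligand genes could be compared, a different set, and 0 were counted. Collagens and fibronectin are made mainly by stromal cells, whose summed markers were 368 FPKM in vivo with IL-1β and 36.8 FPKM without. That sum includes the ligand genes Col1a1, Col1a2, Col3a1 and Fn1, and the epithelial sum includes Cdh1. The marker sums are thus not independent of the ligand values. Endothelial markers summed to 207 FPKM in vivo with IL-1β and 87.3 FPKM without, and epithelial markers to 17448 and 6710.1 FPKM. The part of stromal, endothelial and epithelial cells in the ligand values, those of Icam1 and Icam2 included, was not tested. Madcam1, the ligand of α4β7, was listed at 0 in all 6 libraries.

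**Figure D5:**
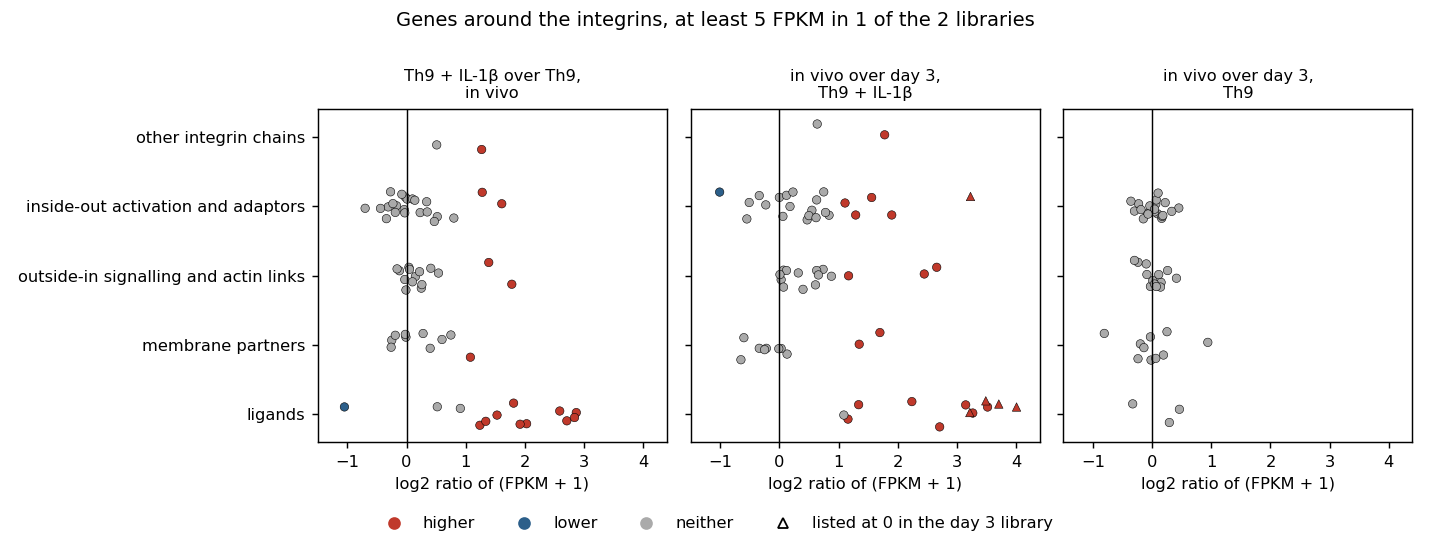
Log2 ratio of FPKM + 1 (horizontal axis) of the genes in 5 lists around the integrins, 1 point per gene that reached 5 FPKM in at least 1 library of the pair, red or blue where counted as higher or lower. Of the 10 ligands counted as higher in vivo with IL-1β, 8 were under 5 FPKM without it; triangles are genes listed at 0 at day 3, whose place depends on the added 1 FPKM.

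For the 4 chains whose log2 FPKM + 1 spanned at least 1 over the poly(A) libraries, the genes most alike in pattern were found by the root mean square difference of values centred per gene, over 4 libraries and 8901 genes. Nearest to Itga6 were Ece1 (0.047), Bcl9l (0.055) and Cpm (0.057), and nearest to Itga4 were Pkd1 (0.039), Zgpat (0.039) and Utrn (0.050). Nearest to Itgb1 were Ggcx (0.029), Fam49a (0.033) and Glcci1 (0.033), and nearest to Itga1 were Gbp3 (0.036), Smad7 (0.045) and Abcb1a (0.079). With 4 values per gene, close patterns are frequent among so many genes.

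On mm9, by the deposited gene spans, Itga4 lies at chr2:79095583-79173271, Itga6 at chr2:71625140-71694815 and Itgav at chr2:83564554-83647073. Itgal lies at chr7:134439774-134478651, Itga1 at chr13:115748289-115892172 and Itgb1 at chr8:131209554-131257479. Itgb2 lies at chr10:76993093-77028419, Itgb3 at chr11:104469314-104531785 and Itgb7 at chr15:102046426-102062366. The deposited values are 1 per gene and do not tell isoforms apart.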

How the data were processed

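RNA libraries of 6 groups, 1 each, were analysed. The submitters' processing notes name TopHat and mm9; the gene values come from a tool not given in the sources used here. FPKM and their bounds were made by the authors, per the file headers, and used as deposited. Each file had 23700 entries, of which 285 without an OK status were left out, and entries of 1 symbol were summed. Between 19 and 319 values per file exceed their own upper bound. Whole fragments could not be recovered: 9.79% to 11.6% of implied numbers lay within 0.05 of a whole number, so depth is unknown.

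Ratios used a pseudocount of 1 FPKM. The size rule asked for 5 FPKM in 1 library, 2-fold and intervals apart, and touching ends counted as overlap. limma 3.58.1 in R 4.3.3 (with trend, Benjamini-Hochberg adjustment) was fitted to log2 values of genes at 5 FPKM in 1 library. The IL-1β effect used 6 libraries with stage, and the stage effect 4 libraries with arm as covariate, so few degrees of freedom were left. With 1 library per group, the residual spread is how far the IL-1β ratio differs between stages, or the stage ratio between arms. limma also draws the variance of a gene toward that of other genes. Its p-values therefore do not measure spread between replicates. Lengths are the longest GENCODE M21 transcripts, matched by symbol (89.2% to 90.0% of compared genes), and the trend is a lowess curve (fraction 0.3). Starts were counted from 1. Python 3.11.15, numpy 2.4.6, pandas 2.3.3, statsmodels 0.14.6 and matplotlib 3.10.9 were used.

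The members and lists were chosen with earlier results of these data known. Named were the 9 chains, list members counted in an in vivo comparison, up to 4 per list with the largest ratio, other chains given for level (chosen after their values were seen), and the 3 nearest patterns. Defining markers were named after their values were seen. Alternatives were pseudocounts of 0.1 and 5, other minimum values, scaling, length removal and left-out stages.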

Additional observations from a re-analysis of the deposited data

Results flagged for a closer look

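Log2 ratios of a chain often differed in sign between 2 settings of the same contrast. The 5 given here are those where both ratios, before rounding, were at least 0.5 in size, or both had intervals apart, with no library listed at 0. The differences were not tested, since each group has 1 library.

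Itga4 had a log2 ratio for IL-1β of 1.13 at 1 h and -0.84 at day 3, a difference of 1.97, with levels under 5 FPKM in all 4 libraries. It was 0.63 in vivo, so that day 3 minus in vivo was -1.47. Itga6 had a log2 ratio for IL-1β of -0.80 at day 3 and 0.67 in vivo, a difference of -1.48, and its intervals overlapped at both stages. In vivo against day 3, Itgal had 0.44 with IL-1β and -0.26 without, a difference of 0.70, and with the length trend subtracted these were 0.09 and -0.24. Day 3 against 1 h, Itga4 had -0.74 with IL-1β and 1.23 without, a difference of -1.97, across the change from rRNA depletion to poly(A) selection. With the length trend subtracted these were -2.05 and -0.43, so the difference in sign was gone. All 5 share the day 3 library with IL-1β.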

How the results depend on the processing

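No paired analysis was possible because the labels give no replicate numbers and each group has 1 library, so libraries were matched only by the stage or arm term of the limma fits, with 2 and 1 residual degrees of freedom; leaving out a replicate would empty a group. Over the 9 chains, 525 of 591 alternative values kept the call, changes of sign in uncounted values included; 24 lost the call, 9 gained it, 20 moved beyond the interval and 13 reversed. All 13 reversals were in day 3 against 1 h. Values that were never counted could also change sign, as Itgb1 for IL-1β at day 3 (-0.14, and 0.06 with the length trend removed).

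Day 3 against 1 h depends on scaling. With IL-1β, 7100 genes counted became 1994 with the length trend removed, 1275 with equal medians and 1200 with equal upper quartiles; without IL-1β, 7379 became 1889, 890 and 1163. The share of higher calls moved from 99.4% to 83.6% and 81.8% with IL-1β under the 2 scalings. Chains counted as higher went from 6 with IL-1β to 1, 0 and 0, and from 6 without it to 3, 1 and 2 in the same order; chains counted as lower went from 0 with IL-1β to 2, 1 and 1, and from 0 without it to 1 with the trend removed. With IL-1β, log2 ratios turned to -0.21 and -0.28 for Itgal (medians, upper quartiles), -0.22, -0.62 and -0.65 for Itgav, -0.30, -0.47 and -0.52 for Itgb1 (trend, medians, upper quartiles), and -0.02 for Itgb7 (upper quartiles). Without IL-1β they turned to -0.41, -0.44 and -0.24 for Itgb1 and -2.49 for Itga6 (trend). These scalings remove the overall shift between the libraries, which is 3.32 and 3.46 on the log2 scale for medians.

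For IL-1β, 74 genes counted at 1 h became 27 at a minimum of 10 FPKM, 46 with the trend removed, 42 with equal medians, 126 with equal upper quartiles and 391 with no minimum, which counted 2 chains as higher. At day 3, 274 became 162 at 10 FPKM, 139 with the trend removed and 112 with a pseudocount of 5. In vivo, 839 became 491 with a pseudocount of 5, and 1 chain was counted with no minimum. In vivo against day 3 with IL-1β, 1535 became 960 with a pseudocount of 5, which counted 1 chain in place of 3; the share of higher calls, 67.2%, was 84.6% with equal upper quartiles. Without IL-1β, 227 became 142 at 10 FPKM and 478 with no minimum. The limma count for IL-1β, 0, was 75 without the 1 h stage, 2 without day 3 and 1 without the in vivo stage; for in vivo against day 3 it was 290, and 135 with all 6 libraries and 96 with no minimum. Apart from the scalings, the cause of these changes was not tested. Low values limit Itga1, Itga4 and all 1 h results.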

Other observations

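Chains outside the 9 that were listed at 0 or below 1 FPKM at day 3 and were above 2 FPKM in vivo with IL-1β were Itga8, Itga9, Itgam and Itgax, named after their values were seen. Itga8, whose product binds matrix with β1, was at 4.28 FPKM in vivo with IL-1β (2.81 to 5.63) and 0.125 FPKM without, and Itga9 at 2.81 FPKM with IL-1β (1.74 to 3.91) and 0.562 FPKM without. The myeloid chains Itgam and Itgax, which also pair with Itgb2, were at 2.29 and 2.51 FPKM in vivo with IL-1β and 1.56 and 1.28 FPKM without. All stood below the 5 FPKM minimum.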
